A study of Mus musculus with 9 samples.

Results

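Integrins and laminins are the cell surface receptors and basement membrane ligands through which fibroblasts hold on to their matrix, and their genes were compared between mouse embryonic fibroblasts (MEFs) of 3 genotypes. The members were all rows whose gene symbol names an integrin alpha or beta gene or a laminin chain, 39 of the 24341 genes listed. They were 28 integrin genes (18 alpha subunits, 9 beta subunits and *Itgbl1*, a beta-like gene that encodes no receptor subunit) and 11 laminin chains, and all 39 were placed on the GRCm38 mouse genome as protein-coding genes. RNA-Seq of poly(A) RNA had been made from 9 MEF samples on the C57BL/6 background, 3 WT, 3 *Atm-/-* and 3 *Sirt6-/-*, all grown in DMEM with 10% serum and not treated further. ATM is the kinase that starts the DNA damage response, and SIRT6 is a chromatin deacetylase. The genotype label of the second group gives *Atm-/-* alone, but the protocol in the labels lists p53-null mice and mice that lacked both *Atm* and p53 among the sources, and the methods name immortalized MEFs of that double genotype and of *Sirt6-/-*, each from a different laboratory. The labels do not settle the p53 status of the WT and *Sirt6-/-* samples. The effects of *Atm* and p53, and for both knockouts those of the genotype and the source of the line, therefore cannot be told apart. Nothing says whether the 3 samples of a genotype came from separate embryos or cultures, so the p-values measure the spread between these samples, which may be technical.

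Every integrin is a pair of an alpha and a beta subunit. The alpha subunit mostly sets the ligand (collagens, laminins, or matrix proteins that carry the RGD tripeptide such as fibronectin and vitronectin), and most beta subunits link the receptor through talin and kindlin to actin. Every laminin is a trimer of an alpha, a beta and a gamma chain. Many but not all trimers are cross-shaped and polymerize into the sheet that basement membranes are built on. The alpha chain carries the end that integrins and dystroglycan bind. Among the integrins, fibroblasts are known mainly for the fibronectin and collagen receptors.

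Each sample held between 32187040 and 33837949 counted reads, so that 3 reads in a library, taken as the detection floor, were worth 0.0887 to 0.0932 CPM (counts scaled to library size). Samples of a genotype correlated at r = 0.9982 to 0.9988 over log counts of all genes, against 0.9459 to 0.9682 between genotypes, and no 2 were alike within sampling noise. *Sirt6* had 4 to 7 reads in the *Sirt6-/-* samples and 402 to 487 in WT. *Atm* had 3443 to 3768 reads in the libraries labelled *Atm-/-* and 1536 to 1627 in WT, which goes against a loss of the transcript. A count over the whole gene does not show which exons the reads cover, so it checks nothing about the deletion, and *Atm-/-* below stands for the libraries that carry that label. *Trp53* had 806 to 946 reads there and 6563 to 7108 in WT. On the log2 scale *Trp53* differed from WT by -3.09 in *Atm-/-* and by 0.35 in *Sirt6-/-*, so its transcript was low in *Atm-/-* only. A transcript level does not settle whether p53 works in a line. *Vim*, a fibroblast marker, was the most abundant of 12 fibroblast markers in every genotype, but their summed level was 6569 to 7117 RPKM in WT, 2559 to 2620 in *Atm-/-* and 4674 to 4759 in *Sirt6-/-*. In bulk RNA, fewer cells of a type and less RNA per cell cannot be told apart.

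Levels below are normalized RPKM, the reads per listed transcript length and per TMM-scaled library size (TMM over the 9 samples), and they are the scale on which genes were compared with each other. Differences are log2 fold changes with their standard error (SE), and adjusted p is the Benjamini-Hochberg adjusted p of edgeR's quasi-likelihood test over all genes tested. In WT the integrin set was led by *Itgb1*, the beta subunit shared by most fibroblast integrins, at 312 ± 16.1 RPKM (SD, n = 3). *Itga3* (62.3 ± 3.97) and *Itga5* (59.4 ± 10.3) followed, with ranges that overlapped, and then *Itgav*, *Itgb5* and *Itga6*, whose ranges did not overlap with their neighbours in the order. Among the laminin chains the WT order was *Lamc1* (70.7 ± 4.65 RPKM), *Lamb1* (55.2 ± 0.664), *Lama5* (33.2 ± 2.65) and *Lamb2* (23.0 ± 2.08), again without overlap. In *Atm-/-* the order of the first 6 integrin genes was the same, but *Lamb1* stood above *Lamc1*. In *Sirt6-/-*, *Itgb5* moved to second place behind *Itgb1*, and *Lama5* fell out of the abundant laminin chains. A mean of at least 1 RPKM was reached by 11 integrin genes and 6 laminin chains in WT, by 12 and 7 in *Atm-/-* and by 10 and 5 in *Sirt6-/-*.

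**Figure D1:**
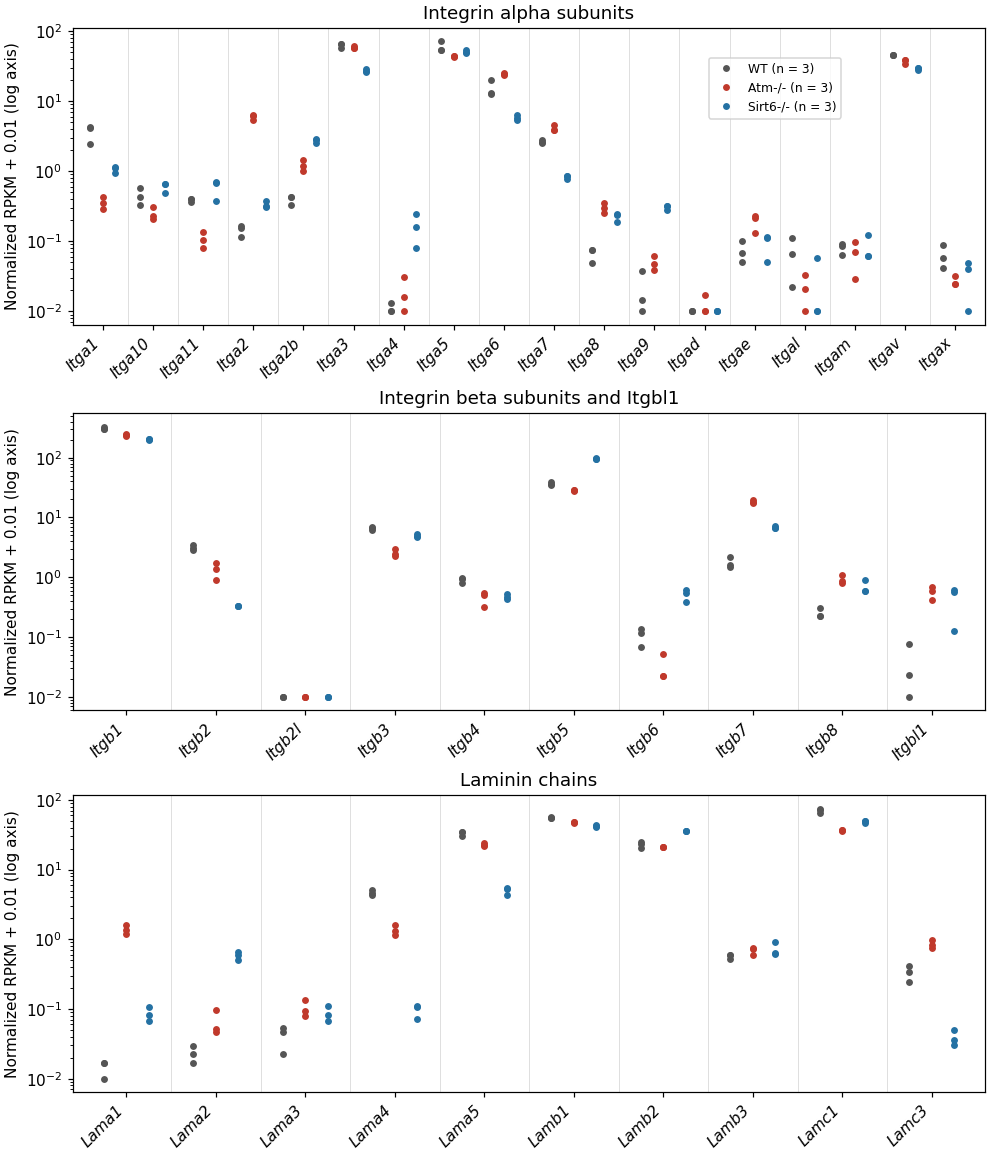
Level of the members in each of the 9 samples, in normalized RPKM with 0.01 added so that 0 can be drawn, on a log axis; each point is a sample of WT (grey), *Atm-/-* (red) or *Sirt6-/-* (blue). *Itga2*, *Itgb7* and *Lama1* stand above WT in both knockouts, *Lama4* stands below it in both, and *Lama5* sits at 4.28 to 5.41 RPKM in *Sirt6-/-* against 30.2 to 35.0 in WT.

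Against WT, *Atm-/-* MEFs had 14 members higher and 15 lower of the 32 that passed the filter on low counts, 3 were not called and 7 were not tested. Over all 13283 genes tested, 68.4% were called (34.7% higher and 33.6% lower), so a call by itself sets no member apart. The members' share was 90.6%, and with only the genes that had at least 10 reads in every sample it was 88.0% against 67.8% of all genes. Differences of at least 2-fold were called for 16 members, 50.0% of those tested, and for 22.5% of all genes. Members with hardly any reads in WT entered the test through the other genotype, so these shares are descriptions and not tests. The members' median log2 difference was -0.12, and that of all genes was 0.02. With library totals in place of TMM scaling the median of all genes moved to 0.18, the members' median to 0.05, and the calls to 14 higher and 13 lower.

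In the comparison of *Sirt6-/-* with WT, 14 members were higher and 15 lower of 34 tested, 5 were not called and 5 were not tested, beside 76.6% of 13206 genes called (39.2% higher and 37.4% lower). At 2-fold or more, 20 members were called, 58.8% of those tested against 29.3% of all genes, and the members' median log2 difference was 0.36 against 0.02 for all genes. The sign of that median rests on members with few reads: with at least 10 reads in every sample, which drops members near 0 in either genotype, it was -0.38 against 0.01 for all genes, with 8 members higher and 14 lower of 24 tested. In *Atm-/-* the same filter gave 8 higher and 14 lower of 25, at a median of -0.28. Both comparisons use the same 3 WT samples, so that calls which recur in both are not independent. In the plot of changes the members' differences in *Atm-/-* and *Sirt6-/-* stand side by side, and 5 members were called in opposite directions (*Itga6*, *Itga7*, *Itgb5*, *Lamb2* and *Lamc3*). The share of all genes called in opposite directions was not counted. When the knockouts were compared directly, 14 members were higher and 13 lower in *Atm-/-* of 34 tested, beside 75.8% of 13460 genes called (38.0% higher and 37.8% lower).

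**Figure D2:**
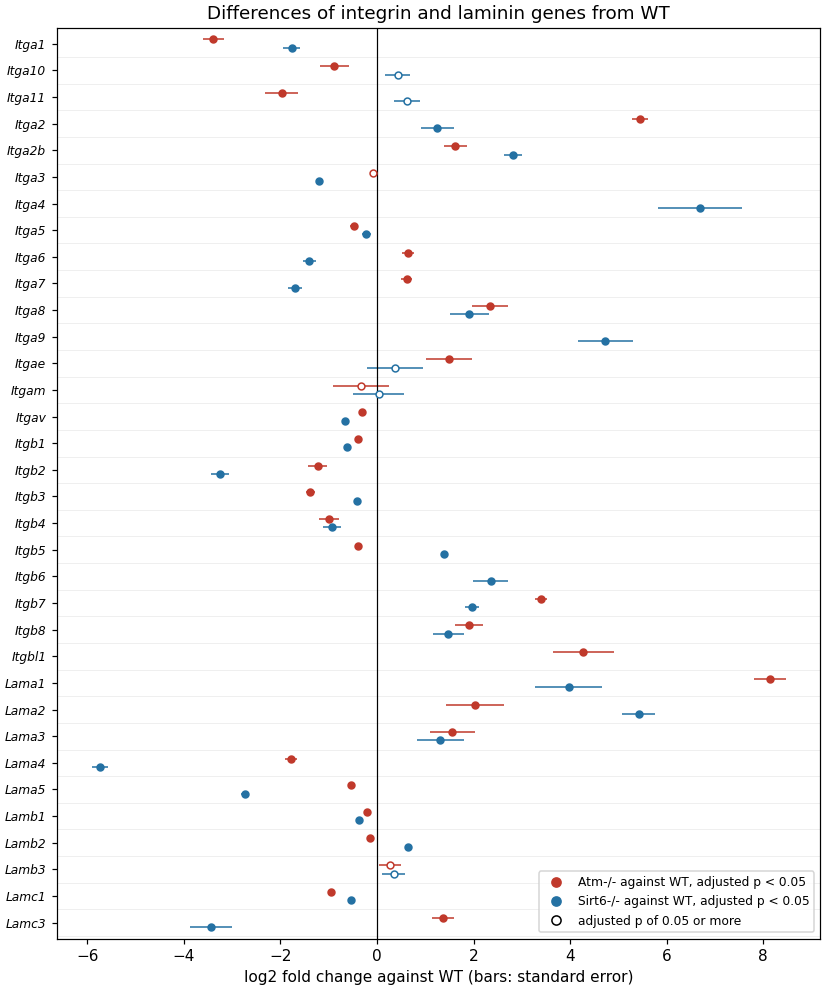
Log2 fold change against WT of the members tested, in *Atm-/-* (red) and *Sirt6-/-* (blue), with bars for the standard error computed from the F statistic. These bars can be too short where a genotype has few reads. Filled points had an adjusted p under 0.05 and open points did not. The changes run from -5.75 (*Lama4* in *Sirt6-/-*) to 8.13 (*Lama1* in *Atm-/-*), and *Itgb5*, *Itga6*, *Itga7*, *Lamb2* and *Lamc3* have filled points on both sides of 0.

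The laminin alpha chains, which carry the integrin-binding end of the trimer, were lower in sum in both knockouts. They summed to 37.9 ± 3.001 RPKM in WT, 25.8 ± 0.951 in *Atm-/-* and 5.77 ± 0.695 in *Sirt6-/-* (n = 3 each). All 5 alpha chains were called in both comparisons, 3 higher (*Lama1*, *Lama2*, *Lama3*) and 2 lower (*Lama4*, *Lama5*), but the 3 that were higher held few reads, so the sum followed *Lama5*. *Lama5*, the most widely made alpha chain of adult basement membranes, was at 34.5, 30.2 and 35.0 RPKM in WT, 22.5, 22.0 and 24.4 in *Atm-/-* and 5.18, 4.28 and 5.41 in *Sirt6-/-*. The 3 genotypes did not overlap. *Lama5* was lower than WT by a log2 difference of -0.54 (SE 0.06, adjusted p = 1.38e-06) in *Atm-/-* and -2.74 (SE 0.08, adjusted p = 3.41e-13) in *Sirt6-/-*, and the knockouts differed by 2.22 (SE 0.07, adjusted p = 1.88e-17) by edgeR's quasi-likelihood test. It still made up 87.6% of the summed alpha chain RPKM in WT, 88.9% in *Atm-/-* and 85.9% in *Sirt6-/-*.

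The minor alpha chain differed between the genotypes. *Lama4*, the alpha chain of vessel walls and mesenchyme, had 897, 806 and 954 reads in WT, 334, 280 and 235 in *Atm-/-* and 12, 19 and 20 in *Sirt6-/-*. The groups were separate, with *Sirt6-/-* lowest, at log2 differences from WT of -1.78 (SE 0.12, adjusted p = 6.05e-09) and -5.75 (SE 0.17, adjusted p = 2.38e-13) by edgeR's quasi-likelihood test. *Lama1*, the alpha chain of the first embryonic basement membranes, had 2, 2 and 0 reads in WT, 438, 526 and 384 in *Atm-/-* and 18, 22 and 31 in *Sirt6-/-*. It was all but unread in WT and reached 1.37 ± 0.196 RPKM in *Atm-/-* alone. Its log2 differences from WT were 8.13 (SE 0.33, adjusted p = 2.46e-11) and 3.98 (SE 0.69, adjusted p = 0.000107), values that depend on the prior count because WT is near 0, and the knockouts differed directly by 4.17 (SE 0.20, adjusted p = 7.11e-14). Over the alternative fits the first ran from 6.98 to 8.52 and the second from 2.91 to 4.34. With so few WT reads the SE of both can be too small. *Lama2*, the alpha chain of muscle and Schwann cell basement membranes, had 4, 6 and 2 reads in WT, 29, 14 and 12 in *Atm-/-* and 186, 153 and 211 in *Sirt6-/-*. It was high in *Sirt6-/-*, at a log2 difference of 5.42 (SE 0.34, adjusted p = 1.98e-09) from WT, while the 2.03 of *Atm-/-* (SE 0.60, adjusted p = 0.00812) lost its call without *Atm-/-* replicate 1 (1.55, adjusted p = 0.0577). As a share of alpha chain RPKM, *Lama4* went from 12.2% in WT to 5.26% in *Atm-/-* and 1.51% in *Sirt6-/-*, *Lama1* reached 5.31% in *Atm-/-*, and *Lama2* reached 9.95% in *Sirt6-/-*.

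*Lama3* and *Lamb3* are laminin chains of the epidermal basement membrane. *Lama3* stayed at 4 to 43 reads in the 9 samples, and its higher calls (1.56 in *Atm-/-* and 1.32 in *Sirt6-/-*) were lost without *Atm-/-* replicate 3 (1.31, adjusted p = 0.0531) and, in the other comparison, without WT replicate 2 (0.93, adjusted p = 0.111), *Sirt6-/-* replicate 1 (1.07, adjusted p = 0.112) or *Sirt6-/-* replicate 3 (1.36, adjusted p = 0.0533). *Lamb3*, at 64 to 117 reads, was not called in any comparison. The 10 epithelial markers summed to 61.0 to 66.3 RPKM in *Atm-/-* against 15.0 to 17.6 in WT and 13.1 to 15.3 in *Sirt6-/-*, mostly through *Krt19* (33.5 RPKM) and *Krt18* (20.1), while *Epcam* was at 0.581 RPKM in *Atm-/-* and 0.554 in WT, and their part in the result was not tested.

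*Lamb1*, the usual beta chain, was at 54.7, 54.9 and 55.9 RPKM in WT, 48.3, 47.4 and 47.9 in *Atm-/-* and 41.3, 44.0 and 42.1 in *Sirt6-/-*, in 3 groups without overlap. Its log2 differences from WT were -0.21 (SE 0.04, adjusted p = 0.000293) and -0.38 (SE 0.04, adjusted p = 2.06e-06) by edgeR's test, of which the first was -0.05 with library totals in place of TMM (adjusted p = 0.293). *Lamb2*, the beta chain of the nerve-muscle synapse and the kidney filter, was at 24.7, 20.7 and 23.5 RPKM in WT, 20.9 in each *Atm-/-* sample and 35.8, 35.9 and 35.6 in *Sirt6-/-*. *Sirt6-/-* stood above the other two, while WT and *Atm-/-* overlapped. The rise in *Sirt6-/-* was 0.64 on the log2 scale (SE 0.06, adjusted p = 1.51e-07), whereas the call in *Atm-/-* (-0.14, SE 0.06, adjusted p = 0.0499) sat at the threshold and was lost without WT replicate 1 (-0.08, adjusted p = 0.246), without WT replicate 3 (-0.13, adjusted p = 0.140) and without each *Atm-/-* replicate (-0.13 each, adjusted p = 0.131, 0.117 and 0.127 for replicates 1, 2 and 3). With library totals it was 0.02. *Lamb2* made up 45.3% of beta chain RPKM in *Sirt6-/-* against 29.1% in WT and 30.1% in *Atm-/-*.

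*Lamc1*, the gamma chain of nearly all laminins outside the epidermis, was at 71.3, 65.8 and 75.0 RPKM in WT, 37.1, 36.3 and 36.8 in *Atm-/-* and 49.5, 49.5 and 46.0 in *Sirt6-/-*. The groups were separate and *Atm-/-* was lowest, at log2 differences of -0.95 (SE 0.05, adjusted p = 3.46e-10) and -0.55 (SE 0.05, adjusted p = 2.81e-07) from WT. *Lamc3*, a gamma chain of nerve, retina and skin, had 63, 43 and 76 reads in WT, 198, 154 and 166 in *Atm-/-* and 5, 4 and 8 in *Sirt6-/-*. It was higher than WT in *Atm-/-* by 1.37 on the log2 scale (SE 0.23, adjusted p = 8.28e-05) and lower in *Sirt6-/-* at -3.44 (SE 0.44, adjusted p = 4.48e-06) by edgeR's test. Since a trimer takes a chain of each kind, the sums of the classes were set against each other. Alpha chain RPKM per gamma chain RPKM was 0.518 ± 0.0138 in WT, 0.629 ± 0.0177 in *Atm-/-* and 0.113 ± 0.0177 in *Sirt6-/-* (n = 3 each), and beta chain RPKM per gamma chain RPKM was 1.08 ± 0.0406, 1.69 ± 0.0137 and 1.54 ± 0.0654. *Sirt6-/-* held 79.0 ± 1.66 RPKM of beta chains against 78.7 ± 2.29 in WT. The ratios were not tested.

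**Figure D3:**
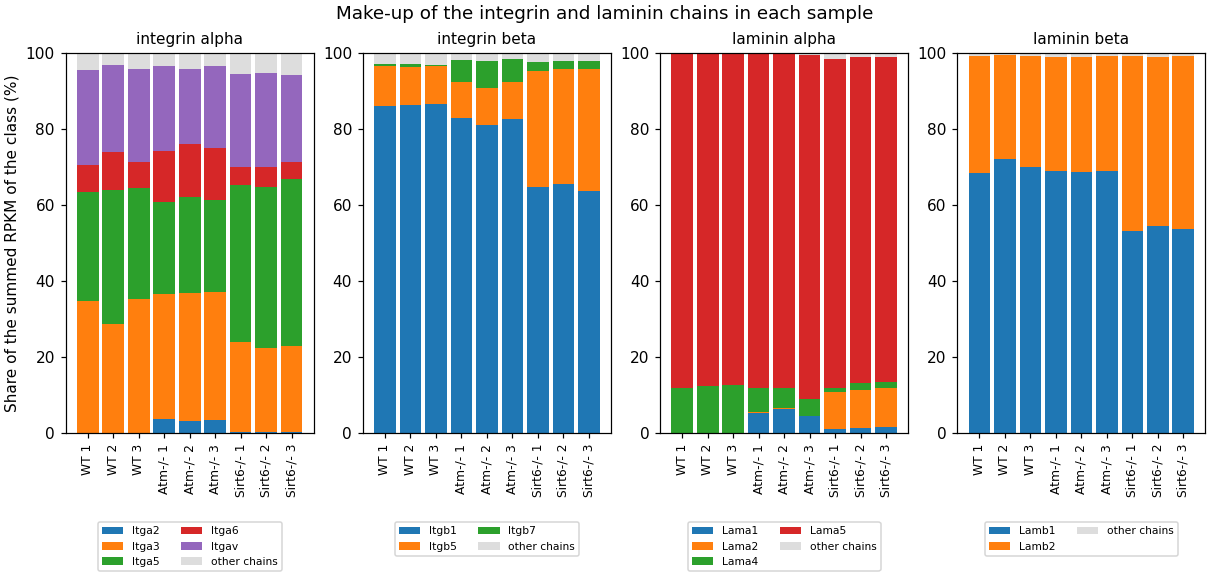
Share of each chain in the summed normalized RPKM of its class (integrin alpha, integrin beta, laminin alpha, laminin beta), as stacked bars to 100%, a bar for each of the 9 samples. *Itgb5* fills 30.4 to 32.03% of the integrin beta bar in *Sirt6-/-* against 9.82 to 10.6% in WT, and *Lamb2* 44.4 to 46.1% of the laminin beta bar against 27.2 to 30.9%.

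Among the integrin alpha subunits that bind laminin, *Itga6* and *Itga7* went opposite ways in the knockouts, and *Itga3*, the most abundant, was called only in *Sirt6-/-*. *Itga3*, *Itga6* and *Itga7* summed to 80.3 ± 0.366 RPKM in WT, 87.1 ± 2.29 in *Atm-/-* and 33.9 ± 0.885 in *Sirt6-/-*. All 3 were lower than WT in *Sirt6-/-*, and in *Atm-/-* 2 were higher and *Itga3* was not called. *Itga3* was at 64.4, 57.8 and 64.9 RPKM in WT, 57.8, 57.8 and 60.8 in *Atm-/-* and 28.3, 26.4 and 27.2 in *Sirt6-/-*. WT and *Atm-/-* overlapped (log2 difference -0.09, SE 0.05, adjusted p = 0.1247, and 0.07 with library totals), and *Sirt6-/-* stood below both (-1.19, SE 0.05, adjusted p = 4.23e-11). The *Itga3* difference in *Atm-/-* was called only without WT replicate 2 (-0.15, adjusted p = 0.0058). *Itga6*, whose pairs with *Itgb1* and *Itgb4* anchor cells to laminin, was at 13.1, 20.2 and 12.8 RPKM in WT, 23.4, 24.2 and 24.9 in *Atm-/-* and 5.79, 6.24 and 5.38 in *Sirt6-/-*. Its groups were separate although WT replicate 2 stood well above the other WT samples. The log2 differences from WT were 0.65 (SE 0.13, adjusted p = 0.000329) and -1.40 (SE 0.14, adjusted p = 3.18e-07), and 0.90 and -1.17 without that sample. *Itga7*, the main laminin receptor of muscle, was at 2.60, 2.78 and 2.50 RPKM in WT, 3.82, 4.502 and 3.82 in *Atm-/-* and 0.840, 0.830 and 0.754 in *Sirt6-/-*. It followed the order of *Itga6*, at 0.62 (SE 0.11, adjusted p = 0.000164) and -1.70 (SE 0.14, adjusted p = 5.51e-08). The direct differences between the knockouts were 2.07 for *Itga6* (adjusted p = 4.73e-18) and 2.33 for *Itga7* (adjusted p = 9.71e-13) by edgeR's quasi-likelihood test. Skeletal muscle markers gave 8.42 to 9.68 RPKM in WT, nearly all from *Acta1*, and under 1.54 in the knockouts, with *Myog*, *Myf5* and *Ckm* at 0 in all 9 samples.

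The collagen-binding alpha subunits *Itga1* and *Itga2* moved in opposite directions from WT. *Itga1* had 820, 457 and 766 reads in WT, 71, 59 and 84 in *Atm-/-* and 182, 219 and 221 in *Sirt6-/-*. It was highest in WT and lowest in *Atm-/-* without overlap, at log2 differences of -3.39 (SE 0.22, adjusted p = 3.68e-09) and -1.77 (SE 0.18, adjusted p = 4.83e-07). *Itga2* had 21, 19 and 14 reads in WT, 927, 797 and 873 in *Atm-/-* and 41, 50 and 43 in *Sirt6-/-*. It was higher than WT by 5.44 (SE 0.16, adjusted p = 8.24e-13) in *Atm-/-* and 1.25 (SE 0.35, adjusted p = 0.00462) in *Sirt6-/-* by edgeR's test, and the direct difference was 4.20 (SE 0.14, adjusted p = 9.30e-17). *Itga11*, a receptor for fibrillar collagen, had 54 to 61 reads in WT and 12 to 21 in *Atm-/-* (log2 -1.97, adjusted p = 0.000122), and its 59 to 113 reads in *Sirt6-/-* were not called (0.62, adjusted p = 0.0513, and 0.86 with adjusted p = 0.0076 without *Sirt6-/-* replicate 2). *Itga10*, the collagen receptor of cartilage, had 51 to 91 reads in WT and 34 to 52 in *Atm-/-*, a call (-0.88, adjusted p = 0.0187) that was lost without WT replicate 1 (-0.64, adjusted p = 0.112), without *Atm-/-* replicate 1 (-0.75, adjusted p = 0.0756) and without *Atm-/-* replicate 3 (-0.83, adjusted p = 0.0557). *Itga10* was not called in *Sirt6-/-* (0.43, adjusted p = 0.139) unless WT replicate 1 was left out (0.65, adjusted p = 0.0459). In the annotation 33.5% of the exon bases of *Itga10* are shared with the gene model *Gm42957* on the same strand, which is not among the genes listed with counts.

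*Itga1* and *Itga2* are neighbours on the minus strand of chromosome 13 (GRCm38, chr13:114953096-115101964 and chr13:114833081-114932100, 20996 bases apart), and *Itga1* was lower and *Itga2* higher in both knockouts. The 250 bases before the RefSeq start of *Itga1* and *Itga2* (chr13:115101965-115102214 and chr13:114932101-114932350) are shown because the neighbours moved apart, and those of *Itgb5* (plus strand, chr16:33829415-33829664) and *Lama5* (minus strand, chr2:180225860-180226109) because they had the largest rise and the largest fall in *Sirt6-/-* among the members at 10 RPKM or more in WT. All are written 5′ to 3′ on the gene's strand from RefSeq (GRCm38.p6), and capitals mark the GC box GGGCGG or its reverse complement CCGCCC.
Itga1: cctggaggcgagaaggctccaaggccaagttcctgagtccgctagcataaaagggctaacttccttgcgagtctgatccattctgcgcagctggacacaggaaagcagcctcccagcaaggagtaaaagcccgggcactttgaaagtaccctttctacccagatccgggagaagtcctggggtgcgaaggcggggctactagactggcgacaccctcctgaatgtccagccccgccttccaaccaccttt
Itga2: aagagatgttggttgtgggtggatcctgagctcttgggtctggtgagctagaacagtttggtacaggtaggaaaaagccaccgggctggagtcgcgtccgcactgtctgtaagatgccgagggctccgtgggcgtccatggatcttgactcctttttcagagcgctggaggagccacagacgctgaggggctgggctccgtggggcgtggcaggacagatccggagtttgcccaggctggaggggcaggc
Itgb5: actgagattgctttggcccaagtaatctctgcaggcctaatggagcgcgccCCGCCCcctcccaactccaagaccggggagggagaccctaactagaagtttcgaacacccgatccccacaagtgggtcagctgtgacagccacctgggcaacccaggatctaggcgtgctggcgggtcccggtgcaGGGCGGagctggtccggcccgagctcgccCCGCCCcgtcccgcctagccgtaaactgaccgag
Lama5: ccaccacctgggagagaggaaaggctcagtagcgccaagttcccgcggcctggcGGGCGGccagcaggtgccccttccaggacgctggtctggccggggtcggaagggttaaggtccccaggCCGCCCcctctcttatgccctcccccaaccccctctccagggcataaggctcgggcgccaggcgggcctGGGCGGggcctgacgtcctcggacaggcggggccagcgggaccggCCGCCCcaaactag
The window of *Itgb5* holds 3 GC boxes and that of *Lama5* 4, and the windows of *Itga1* and *Itga2* hold none. Over both strands, 32.7% of all 32851 RefSeq windows of this length hold at least 1 GC box, and 35.7% of the 28 windows of the 25 members that matched the table. The other motifs searched on both strands were CCAAT (33.8% of all windows, 17.9% of the members'), TATAAA (12.4% and 0%), the AP-1 site TGANTCA (6.75% and 3.57%) and the E-box CACGTG (6.02% and 0%), none of which is contained in another. These are counts of letters and not of bound sites. The members' windows had a median GC content of 57% against 52.4%, and a median of 8 CpG against 6. Among those not matched were *Itga6*, *Itga7*, *Itgad*, *Itgae*, *Itgal*, *Itgb2*, *Itgb3*, *Itgb4*, *Lama1*, *Lama3*, *Lama4*, *Lamc1* and *Lamc3*.

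The RGD-binding alpha subunits were led by *Itga5* and *Itgav*, which were lower in both knockouts by small steps. *Itga5*, the fibronectin receptor subunit, was at 53.3, 71.3 and 53.7 RPKM in WT, 42.2, 43.5 and 43.4 in *Atm-/-* and 49.0, 50.5 and 53.2 in *Sirt6-/-*. WT replicate 2 stood above all others, and the lower WT samples were barely above the highest *Sirt6-/-* sample. *Itga5* differed from WT by -0.47 (SE 0.09, adjusted p = 0.0002) in *Atm-/-*, and its -0.22 in *Sirt6-/-* (SE 0.09, adjusted p = 0.0332 by edgeR's test) was lost without WT replicate 2 (-0.08, adjusted p = 0.119), without *Sirt6-/-* replicate 1 (-0.19, adjusted p = 0.112), without *Sirt6-/-* replicate 2 (-0.21, adjusted p = 0.0909) and with library totals (-0.13, adjusted p = 0.184). *Itgav*, which pairs with *Itgb1*, *Itgb3*, *Itgb5*, *Itgb6* or *Itgb8* to bind vitronectin and latent TGF-beta, was at 46.2, 46.0 and 44.9 RPKM in WT, 39.2, 33.9 and 38.6 in *Atm-/-* and 29.3, 29.7 and 27.8 in *Sirt6-/-*. These groups did not overlap, with log2 differences of -0.30 (SE 0.05, adjusted p = 0.000158) and -0.66 (SE 0.04, adjusted p = 4.65e-09). In shares of integrin alpha RPKM, *Itga5* stood at 42.5% in *Sirt6-/-* against 31.0% in WT and 24.5% in *Atm-/-*, and *Itga3* at 22.8% against 32.8% and 33.5%.

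The 2 further RGD-binding subunits were low and higher in both knockouts. *Itga2b*, the fibrinogen receptor subunit of platelets, had 35, 45 and 45 reads in WT, 139, 173 and 114 in *Atm-/-* and 313, 278 and 329 in *Sirt6-/-*. The groups were separate, at 1.63 (SE 0.24, adjusted p = 2.70e-05) and 2.82 (SE 0.18, adjusted p = 2.51e-09) on the log2 scale, and *Sirt6-/-* exceeded *Atm-/-* (direct difference -1.18, adjusted p = 7.77e-07). *Itga8*, the nephronectin receptor of mesenchyme, had 7 to 12 reads in WT, 48 to 67 in *Atm-/-* and 33 to 45 in *Sirt6-/-* (2.34 and 1.91, adjusted p = 6.23e-05 and 0.000574). *Itga4* and *Itga9*, receptors for VCAM-1, fibronectin and tenascin, were read in *Sirt6-/-* and hardly elsewhere. *Itga4* had 0, 0 and 1 reads in WT, 7, 2 and 0 in *Atm-/-* and 48, 22 and 77 in *Sirt6-/-*, a ratio of *Sirt6-/-* to WT of 151 with a 95% exact counting interval of 26.6 to 5995. *Itga9* had 1, 0 and 6 reads in WT, 9, 7 and 12 in *Atm-/-* and 61, 70 and 72 in *Sirt6-/-* (log2 4.73, adjusted p = 3.11e-06, and 6.71 without WT replicate 3). The fitted size of such differences hangs on the few reads of the lower group, as the log2 difference of *Itga4* in *Sirt6-/-* was 6.69 with all samples and 8.59 without WT replicate 3, and its direct difference -4.04 and -5.51 without *Atm-/-* replicate 1.

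*Itgb1* and *Itgb5* accounted for nearly all integrin beta RNA, and their balance differed in *Sirt6-/-*. *Itgb1* was at 299, 330 and 307 RPKM in WT, 246, 230 and 242 in *Atm-/-* and 202, 205 and 199 in *Sirt6-/-*. It fell without overlap in both knockouts, by log2 differences of -0.39 (SE 0.05, adjusted p = 3.00e-06) and -0.62 (SE 0.05, adjusted p = 1.10e-08). *Itgb5*, which pairs with *Itgav* as a vitronectin receptor, was at 36.9, 39.0 and 34.8 RPKM in WT, 28.3, 27.8 and 28.4 in *Atm-/-* and 95.8, 95.3 and 100.1 in *Sirt6-/-*. It was lower in *Atm-/-* (-0.39, SE 0.05, adjusted p = 1.11e-05) and higher in *Sirt6-/-* (1.40, SE 0.05, adjusted p = 3.63e-12), and the direct difference was -1.78 (SE 0.04, adjusted p = 3.02e-19) by edgeR's quasi-likelihood test. *Itgb1* made up 86.3% of beta subunit RPKM in WT, 82.2% in *Atm-/-* and 64.6% in *Sirt6-/-*, and *Itgb5* 10.2%, 9.68% and 31.0%. Summed integrin alpha per summed beta RPKM was 0.528 ± 0.00668 in WT, 0.603 ± 0.0129 in *Atm-/-* and 0.383 ± 0.00317 in *Sirt6-/-* (n = 3 each).

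The other partners of *Itgav* did not share a direction. *Itgb3*, a vitronectin and fibrinogen receptor subunit, was at 6.58 ± 0.382 RPKM in WT, 2.54 ± 0.354 in *Atm-/-* and 4.95 ± 0.258 in *Sirt6-/-* and was lower in both (log2 -1.38 and -0.41, adjusted p = 1.22e-08 and 0.000152). *Itgb8*, whose pair with *Itgav* activates TGF-beta, was higher in both from 21 to 29 reads in WT (1.91 and 1.48, adjusted p = 3.16e-05 and 0.000829), and the knockouts were not called apart (0.44, adjusted p = 0.107) unless *Sirt6-/-* replicate 1 was left out (0.68, adjusted p = 0.0298). *Itgb6*, an epithelial activator of TGF-beta, had 9, 19 and 16 reads in WT, 2, 7 and 2 in *Atm-/-* and 83, 93 and 59 in *Sirt6-/-*, where it was higher than WT by 2.36 on the log2 scale (SE 0.36, adjusted p = 3.55e-05). Its direct difference was -4.44 (adjusted p = 2.61e-08), and -5.26 without *Atm-/-* replicate 2. *Itgb4*, the hemidesmosome partner of *Itga6*, had 151 to 185 reads in WT, 65 to 113 in *Atm-/-* and 84 to 103 in *Sirt6-/-* (log2 -1.00 and -0.93, adjusted p = 0.000708 and 0.000324).

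*Itgb7* and *Itgb2*, the beta subunits of lymphocyte and leukocyte integrins, moved in opposite directions from WT. *Itgb7* had 125, 184 and 133 reads in WT, 1601, 1870 and 1655 in *Atm-/-* and 630, 572 and 587 in *Sirt6-/-*. The genotypes were separate, with *Atm-/-* at 18.5 ± 1.36 RPKM against 1.75 ± 0.395 in WT and 6.81 ± 0.365 in *Sirt6-/-*, at log2 differences from WT of 3.40 (SE 0.12, adjusted p = 7.06e-12) and 1.96 (SE 0.15, adjusted p = 1.17e-08). Its known alpha partners were not read at a matching level. *Itga4* had at most 7 reads in an *Atm-/-* sample, and *Itgae*, the partner in epithelial lymphocytes, had 16, 29 and 27 there against 11, 7 and 5 in WT (log2 1.496, adjusted p = 0.0128, and adjusted p = 0.0607 without WT replicate 3 and 0.0541 without *Atm-/-* replicate 2). *Itgb2* had 255, 309 and 276 reads in WT, 171, 139 and 85 in *Atm-/-* and 30, 30 and 31 in *Sirt6-/-*. It was lower in both, by log2 differences of -1.23 (SE 0.20, adjusted p = 8.53e-05) and -3.25 (SE 0.19, adjusted p = 9.10e-10) by edgeR's test. Its alpha partners were near the floor, *Itgal* at 0 to 17 reads, *Itgam* at 3 to 17, *Itgax* at 0 to 10 and *Itgad* at 0 or 1 in the 9 samples. Of these only *Itgam* was tested, and it was not called (-0.33 and 0.04, adjusted p = 0.626 and 0.9504). *Itgam* shares 68.7% of its exon bases with the gene model *Gm49368*, which is not among the genes listed with counts. The blood cell marker *Ptprc* was at 0.0201 RPKM in WT, 0.0147 in *Atm-/-* and 0.0270 in *Sirt6-/-*, and the 9 blood cell markers listed summed to 12.0 to 13.1 RPKM in WT, 15.5 to 16.9 in *Atm-/-* and 14.8 to 17.5 in *Sirt6-/-*. *Cd14* carried the higher sums, at 3.59 RPKM in WT, 9.64 in *Atm-/-* and 9.56 in *Sirt6-/-*, and *Lyz2* was not called. The macrophage marker *Csf1r* was lower in both knockouts, as *Itgb2* was, at 1.99 RPKM in WT, 0.185 in *Atm-/-* and 0.548 in *Sirt6-/-*. *Cd68* was at 2.69, 2.19 and 1.24 RPKM in the same order and was called lower in *Sirt6-/-* (log2 -1.11, adjusted p = 0.00125 by edgeR's test) and not in *Atm-/-* (-0.31, adjusted p = 0.197). The part of such cells in the level of *Itgb2* was not tested.

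Of the remaining members, *Itgb2l* had no read in any sample. *Itgbl1*, which encodes a secreted protein with integrin-like EGF repeats, had 5, 0 and 1 reads in WT, 55, 47 and 33 in *Atm-/-* and 46, 9 and 43 in *Sirt6-/-*. It was tested against WT only in *Atm-/-*, at a log2 difference of 4.27 (SE 0.63, adjusted p = 3.08e-05) that became 6.05 without WT replicate 1.

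Among the genes that anchor integrins to actin and signal from them, the share called was near that of all genes, and in *Sirt6-/-* most calls were lower. Of 30 adaptor and signalling genes tested, 7 were higher and 16 lower in *Atm-/-* (median log2 difference -0.17 against 0.02 for all genes), and 4 were higher and 20 lower in *Sirt6-/-* (-0.37 against 0.02). The called share was 76.7% in *Atm-/-* and 80.0% in *Sirt6-/-*, beside 68.4% and 76.6% of all genes. By direction, 34.7% of all genes were called higher and 33.6% lower in *Atm-/-*, and 39.2% and 37.4% in *Sirt6-/-*. With library totals the *Atm-/-* counts became 11 higher and 12 lower. *Parvb*, a parvin that binds integrin-linked kinase, was the largest rise in both, from 0.339 RPKM in WT to 3.55 in *Atm-/-* and 18.6 in *Sirt6-/-* (log2 3.38 and 5.77). *Ptk2b*, a kinase related to focal adhesion kinase, fell from 21.4 RPKM to 4.54 and 1.84 (-2.24 and -3.54). *Tns1*, a tensin that ties integrins to actin, was at 20.8 RPKM in WT, 9.64 in *Atm-/-* and 3.21 in *Sirt6-/-*, where it fell by 2.69 on the log2 scale. *Dab2*, a clathrin adaptor that takes up integrins, fell by 1.38 in *Atm-/-*.

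Most of the basement membrane proteins that laminins assemble with were lower in both knockouts. Of 14 tested in *Atm-/-*, 3 were higher and 10 lower (median -1.94), and of 15 in *Sirt6-/-*, 3 were higher and 10 lower (median -1.86). Called lower over all genes were 33.6% and 37.4%, at a median of 0.02 in each comparison. *Col4a1* and *Col4a2*, the chains of the usual type IV collagen, went from 293 and 158 RPKM in WT to 58.2 and 37.4 in *Atm-/-* and 0.776 and 0.649 in *Sirt6-/-*, log2 differences of -8.56 and -7.92 in the latter. *Nid2*, a nidogen that bridges laminin and type IV collagen, had 16207, 10282 and 16681 reads in WT, 116, 169 and 100 in *Atm-/-* and 2200, 2028 and 2264 in *Sirt6-/-*, and was lower in *Atm-/-* by a log2 difference of -6.94 (SE 0.20, adjusted p = 4.50e-13). *Col4a6* was lower in both (-4.02 and -6.35). *Col18a1*, the collagen that releases endostatin, stood above its 0.554 RPKM of WT in both knockouts. It was at 6.44 RPKM in *Atm-/-* (log2 difference 3.53) and 7.49 in *Sirt6-/-*.

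Of the other laminin receptors and the tetraspanins that ride with laminin-binding integrins, 3 were higher and 7 lower of 11 in *Atm-/-* and 6 were higher and 5 lower of 12 in *Sirt6-/-*. *Sgcd*, a sarcoglycan of the dystroglycan complex, was the largest rise in both (4.45 and 5.74). *Dag1*, dystroglycan itself, and *Sgcb* were lower in *Atm-/-* (-1.33 and -1.22), and *Cd9* was higher in *Sirt6-/-* (1.11). *Cd151*, the tetraspanin partner of *Itga3* and *Itga6*, was at 104 RPKM in WT, 57.6 in *Atm-/-* and 34.6 in *Sirt6-/-* (log2 difference -1.59 in *Sirt6-/-*). Among 19 integrin ligands other than laminins, 8 were higher and 10 lower in *Atm-/-* and 10 were higher and 5 lower in *Sirt6-/-*. Of all genes, 68.4% were called in *Atm-/-* (34.7% higher and 33.6% lower) and 76.6% in *Sirt6-/-* (39.2% higher and 37.4% lower). Whether the shares called in the 2 lists differ from these was not tested. *Lrrc32*, which presents latent TGF-beta to *Itgav* integrins, was higher in both (3.45 and 5.51) and *Vcam1*, a ligand of *Itga4*, lower in both (-3.26 and -2.17). *Svep1*, a ligand of *Itga9*, was lower in *Atm-/-* (-5.06), and *Col1a1* was lower in *Sirt6-/-* (-1.87). The level of *Col1a1* was also lower in *Atm-/-*, below the 409 RPKM of *Fn1* there, against 1845 RPKM in WT. All log2 differences named for genes of these lists had an adjusted p of at most 2.64e-08 by edgeR's quasi-likelihood test.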

How the data were processed

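RNA-Seq libraries of 9 MEF samples (3 WT, 3 *Atm-/-*, 3 *Sirt6-/-*) were used. The deposited read counts are whole numbers per gene symbol without normalization, and the authors also deposited RPKM made from them with 1 listed transcript length per gene, which served only as an alternative scale. The genome build mm10 is named in the submitters' processing notes. The aligner, the counter and any use of strand are not given in the sources used here. The members, the pathway and marker lists and the tests were chosen with earlier results of these data known. Each pair of genotypes was fitted on its 6 samples with edgeR 4.0.16 in R 4.3.3 (filterByExpr, TMM, quasi-likelihood test, prior count 0.125), with Benjamini-Hochberg adjustment over all genes tested and a call at an adjusted p under 0.05. SE was computed from the F statistic, so it is approximate and can be too small where a genotype has few reads. The fit was also run on simulated counts with a single fixed spread and changes placed only in genes with many reads. That run says nothing about members with few reads. Members at 10 RPKM or more in a genotype, the 6 largest changes per comparison with WT among called members of at least 1 RPKM, and members called in opposite directions at that level were given sample by sample, and for each pathway list the 3 largest called changes at 5 RPKM or more were named. *Lamc3*, *Lama2* and the low integrin genes given sample by sample fell outside that rule and were chosen after their values were seen. Intervals and floors cover counting error only. The alternatives tried were DESeq2 1.42.0 size factors and its Wald test, library totals, other filters on low counts, all 9 samples together, a replicate block, edgeR's exact test, a prior count of 2, a 2-fold threshold and leaving out each replicate. Positions are from GENCODE M21 on GRCm38, and promoter windows are from RefSeq. Levels of near-identical or overlapping genes are uncertain where the counting could split reads. The values of 1 member are not reported here.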

Additional observations from a re-analysis of the deposited data

Results flagged for a closer look

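For 5 members the effect against WT had opposite signs in the knockouts and the direct test between the knockouts was called by edgeR's quasi-likelihood test. How many of all genes do the same, or have knockout samples on separate sides, was not counted. Of all genes, 68.4% were called in *Atm-/-* and 76.6% in *Sirt6-/-* against WT, and 75.8% in the direct comparison. The 5 are therefore a description and do not set the members apart. The log2 difference of *Atm-/-* from *Sirt6-/-* was 2.07 for *Itga6*, 2.33 for *Itga7*, -1.78 for *Itgb5*, -0.77 for *Lamb2* and 4.83 for *Lamc3*, with the 3 samples of each knockout on separate sides in all 5. Against WT the values were 0.65 and -1.40 for *Itga6*, 0.62 and -1.70 for *Itga7*, -0.39 and 1.40 for *Itgb5*, -0.14 and 0.64 for *Lamb2*, and 1.37 and -3.44 for *Lamc3*, in the order *Atm-/-*, *Sirt6-/-*. The sign of *Lamb2* in *Atm-/-* turned with library totals (0.02), so that its opposite direction rests on the scaling, while its direct difference was -0.76 to -0.77 over the replicates left out. Both effects of a gene share the WT samples, and genotype, p53 status and source laboratory cannot be told apart.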

How the results depend on the processing

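Of the members' log2 fold changes recomputed under the alternatives, 1422 kept their direction and side of the threshold, 33 lost a call, 8 gained it and 14 changed sign. When at least 10 reads were required in every sample, which leaves fewer members to test, 8 were higher and 14 lower than WT in *Atm-/-*, and 8 and 14 in *Sirt6-/-*, where the members' median turned from 0.36 to -0.38. All genes under this filter were 3955 higher and 4020 lower in *Atm-/-* and 4454 and 4395 in *Sirt6-/-*. At 2-fold or more, 11 members were higher and 5 lower in *Atm-/-*, and 12 and 8 in *Sirt6-/-*. Against WT in *Atm-/-*, library totals gave 0.072 for *Itga3* and 0.022 for *Lamb2*, neither called, and *Itgam* ranged from -0.80 to 0.091 (without *Atm-/-* replicate 1) over the replicates left out. In *Sirt6-/-* *Itgam* ranged from -0.42 (without *Sirt6-/-* replicate 2) to 0.23, with -0.13 without WT replicate 1. In the direct comparison library totals gave 0.0080 for *Itgb4* and 0.0031 for *Lamb3*, leaving out *Sirt6-/-* replicate 2 gave 0.028 for *Itgb4*, -0.047 for *Itgbl1* and 0.15 for *Lamb3*, and leaving out *Atm-/-* replicate 3 gave 0.15 for *Itgb4*, 0.046 for *Lamb3* and -4.39e-05 for *Lama3*. Over all replicates left out these direct values ranged from -0.19 to 0.15 for *Itgb4*, -0.047 to 0.73 for *Itgbl1*, -0.16 to 0.15 for *Lamb3* and -4.39e-05 to 0.51 for *Lama3*. None of these had been called, apart from *Lamb2*.

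Replicate numbers are shared by the genotypes but pair no samples in the labels, and deviations of same-numbered samples correlated at -0.020 to 0.031. Once this number entered as a block, the members called against WT were 14 higher and 14 lower in *Atm-/-*, 14 and 15 in *Sirt6-/-*, and 14 and 13 in the direct comparison, *Lamb2* in *Atm-/-* lost its call (adjusted p = 0.053 by edgeR) and *Itgam* in *Sirt6-/-* was -0.0026. Over the replicates left out, 13 to 14 members were higher and 14 to 16 lower in *Atm-/-*, 13 to 16 and 14 to 15 in *Sirt6-/-*, and 13 to 14 and 13 in the direct comparison. *Itgae* lost its direct call (1.14, adjusted p = 0.0385) without *Sirt6-/-* replicate 1 (0.81, adjusted p = 0.176), *Sirt6-/-* replicate 3 (1.32, adjusted p = 0.0533), *Atm-/-* replicate 2 (0.996, adjusted p = 0.124) or *Atm-/-* replicate 3 (1.03, adjusted p = 0.106) by edgeR's test. The cause of these shifts was not tested. At this depth 7 members in the comparison of *Atm-/-* with WT and 5 in that of *Sirt6-/-* had too few reads to be tested. Deposited RPKM and shares from read counts moved 12 of 29 levels and 24 of 28 shares by more than 1 SD between replicates.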
